A study of Macaca mulatta with 2 samples.

Results

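The genes described here are melanophilin and 9 partners of RAB27 vesicle transport: MLPH, RAB27A, RAB27B, MYO5A, MYO7A, MYRIP, SYTL1, SYTL2, SYTL4 and RAB38. They were taken by gene name from the array annotation with every probe they have, which gave 17 of 41000 probes. The list was drawn up around MLPH, which was chosen by its high ratio of pubertal over infant on these same 2 arrays, so the ratios below are a description and no test of them is made. RNA came from primary Sertoli cell cultures, the nurse cells of the seminiferous tubule, made from testes of rhesus macaques (Macaca mulatta). The pubertal cultures came from animals of 18 to 22 months whose puberty was induced. For 4 to 5 weeks these animals, juvenile at the start, received gonadotropin-releasing hormone through an indwelling catheter, in pulses of 2 min at 0.15 µg/min that were spaced 3 h apart. The infant cultures came from males below 3 months of age, for which the labels name no hormone pulses. All cultures, infant ones included, had 100 nM testosterone and 5 ng/ml of follicle-stimulating hormone for 24 h, so neither age was measured without hormones. Each of 2 two-colour arrays set 1 pubertal culture against 1 infant culture of other animals, with pubertal RNA in Cy5 on array 1 and in Cy3 on array 2.

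RAB27A and RAB27B are small GTPases that sit on secretory vesicles and lysosome-related organelles and carry them through their last steps to the cell surface. They act through effectors that bind their active form. Melanophilin joins RAB27A on the melanosome to the actin motor myosin Va in pigment cells, MYRIP joins it to myosin VIIa, and the synaptotagmin-like proteins of the SYTL genes tether vesicles to the plasma membrane. Loss of RAB27A, myosin Va or melanophilin is known in humans for pale hair with clumped pigment. Of these proteins, myosin VIIa has been described at Sertoli cell junctions in rodents.

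The probes are 60-base oligonucleotides of a human whole-genome design, so macaque RNA was measured with human sequence. Mismatches to the macaque genome were not looked up here, and all 10 gene symbols stand in the macaque gene table used here. Coordinates are those of the array files on human build hg17. MLPH has 3 probes, numbered 1 to 3 by brightness, all on the plus strand and spread over 42928 bases of chromosome 2. Probe 1 lies nearest the 3′ end of the gene, at chr2:238244524-238244583. Probe 2 is given as chr2:238239898-238243015, a span of 3118 bases for 60 bases of sequence, so it crosses at least 1 intron and matches spliced RNA. Probe 3 lies far upstream at chr2:238201656-238201715. Every probe was designed on a messenger RNA of its gene, per the array annotation, and whether it lies in coding or untranslated sequence is not given in the sources used here. The MLPH probes are shown because the main result rests on them, the SYTL1 probes because both were brighter in Cy5 on each array, and the brighter RAB27A probe because it stands for the GTPase itself. Of MLPH probe 1 only bases 1 to 30 are shown.
MLPH probe 1, bases 1 to 30: ttgaaggacacaccgaagacctttatactg
MLPH probe 2: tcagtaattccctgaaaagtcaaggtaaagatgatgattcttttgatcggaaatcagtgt
MLPH probe 3: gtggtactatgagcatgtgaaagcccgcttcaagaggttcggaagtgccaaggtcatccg
SYTL1 probe 1: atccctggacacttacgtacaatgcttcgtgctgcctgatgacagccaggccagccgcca
SYTL1 probe 2: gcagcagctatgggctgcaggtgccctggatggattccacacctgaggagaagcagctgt
RAB27A probe 1: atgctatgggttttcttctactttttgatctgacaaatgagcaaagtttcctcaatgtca
The 17 probes range from 35% to 60% in their share of G and C bases, and MLPH probes 1, 2 and 3 hold 41.7%, 35% and 53.3%.

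Of the 17 probes, 12 were well above background in all 4 channels and 1, that of RAB27B, in none. A probe was kept where it was well above background for the pubertal RNA on both arrays or for the infant RNA on both, which left 14 probes and 8 of the 10 genes. The probes left out were those of RAB27B and RAB38 and the dimmer probe of MYO7A. Over all genes, 19611 were tested, each through its brightest kept probe. Levels below are normalized intensities in arbitrary units, which hold for 1 probe across channels and cannot be set against those of another probe. The median probe had levels of 131 and 129 in the pubertal channels of arrays 1 and 2 and of 128 and 130 in the infant channels. Ratios are log2 of pubertal over infant, and errors are moderated standard errors (SE) from limma's fit over all kept probes, with n = 2 array pairs.

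Melanophilin RNA was higher in the pubertal cultures on both arrays, by all 3 of its probes. At probe 1 the level was 31278 and 19844 in the pubertal cultures of arrays 1 and 2, against 5354 and 6294 in the infant cultures. The lower pubertal value thus lay well above the higher infant value, and the groups did not overlap. How many of all genes separate in this way was not counted, and MLPH was picked for its ratio. Such a separation is therefore only described, here and for the genes below, and nothing is read from it. The log2 ratio was 2.55 for the pair of array 1 and 1.66 for that of array 2. Their mean was 2.10 ± 0.31, or 4.29-fold. The pubertal spot of probe 1 was saturated on array 1, at a raw intensity of 65086 near the scanner's ceiling, so its level, the ratio of 2.55 there and the mean are lower bounds, and the SE does not cover this limit. Array 2 measured the probe free of saturation in both channels.

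The other MLPH probes had no saturated spot and pointed the same way with smaller ratios. Probe 2, the one that crosses an intron, was at 1435 and 757 in pubertal cultures, against 422 and 353 in infant cultures. Its ratios of 1.76 and 1.10 gave a mean of 1.43 ± 0.28, or 2.70-fold. Probe 3 was at 414 and 353 in pubertal cultures, against 237 and 154 in infant cultures. Its ratios of 0.81 and 1.20 gave a mean of 1.00 ± 0.25, or 2.00-fold. In each of the 3 probes both pubertal levels lay above both infant levels. The probes without saturation thus had means of 2.70-fold and 2.00-fold, and the order of the arrays turned over: array 1 had the larger ratio for probes 1 and 2 and the smaller one for probe 3. Read as Cy5 over Cy3, the means of probes 1, 2 and 3 were 0.44, 0.33 and -0.20, that of probe 1 with the saturated Cy5 spot. These means hold both the dye and the difference between the 2 pairs of animals, which cannot be told apart.

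Among all 19611 genes, MLPH stood at rank 8 by the smaller of its 2 ratios and at rank 7 by their mean. On array 1 alone 26 genes had a higher ratio, and on array 2 alone 69. These ranks describe why MLPH was picked and support nothing further. By another measure, the Euclidean distance over both ratios, genes that lay near to MLPH included the cancer-testis antigen gene CTAG1A (2.09 and 1.41). Further ones were LMAN1, a cargo receptor from endoplasmic reticulum to Golgi (2.06 and 1.95), the germ cell kinase gene STK31 (2.06 and 1.35) and the linker histone gene HIST1H1C (2.50 and 1.08). The Euclidean distances of these 4 genes from MLPH were between 0.522 and 0.580 on the log2 scale. A likeness over 2 arrays is a weak description, and nothing is drawn from it about these genes.

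**Figure D1:**
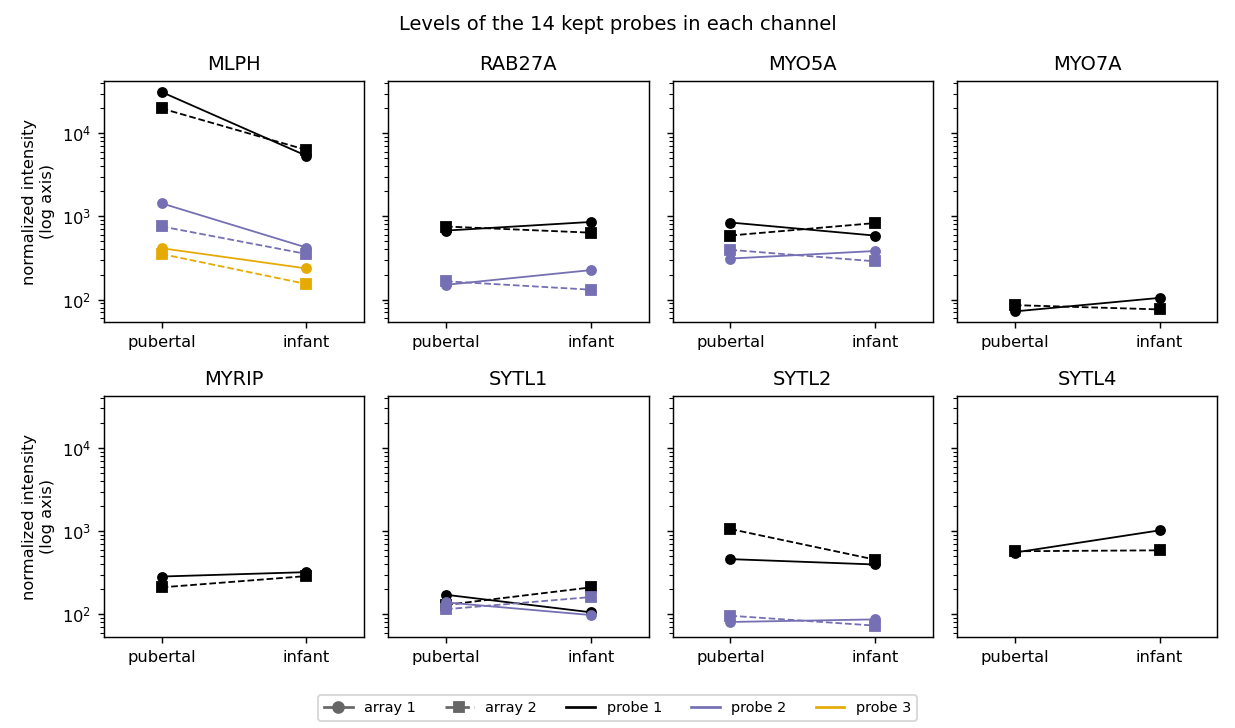
Normalized intensity (log axis) of the 14 kept probes in the pubertal and infant channels, 1 panel per gene, with circles and solid lines for array 1, squares and dashed lines for array 2, and 1 colour per probe in order of brightness. The lines of all 3 MLPH probes slope down from pubertal to infant on both arrays, while those of RAB27A, MYO5A and SYTL1 cross.

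By a rule of size that asked each array for a 2-fold difference with a shared sign, MLPH was the 1 member that was higher and 0 members were lower. Over all genes 0.342% were higher and 0.352% lower by that rule. On array 1 alone MLPH was the 1 member past 2-fold on the higher side, beside 4.26% of all genes, and 0 members were past it on the lower side, beside 2.97%. On array 2 alone MLPH and SYTL2 were past it on the higher side, beside 2.35%, and 0 members on the lower side, beside 2.37%. Because the list was built around MLPH, nothing is read from its share of 1 in 8. Ignoring size, 2 of the 8 members were higher on both arrays (MLPH and SYTL2), 2 were lower on both (MYRIP and SYTL4) and 4 had opposite signs. The same counts over all genes were 23.5% higher and 21.9% lower. The 25% on each side lies near these background shares and is no result about the members. The median ratio of the 8 members was 0.02 on array 1 and 0.07 on array 2, beside 0.05 and -0.03 over all genes. By limma's test with Benjamini-Hochberg adjustment, 0 of the 19611 genes had an adjusted p under 0.05, and 792 (4.04%) had an unadjusted p under 0.05.

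RAB27A, the GTPase that melanophilin binds, went opposite ways in the 2 pairs of cultures. Its probes lie on the minus strand at chr15:53308111-53308170 (probe 1) and chr15:53283817-53283876 (probe 2). Probe 1 was at 675 and 755 in pubertal cultures, against 857 and 637 in infant cultures. The groups overlapped: the pubertal level was the lower one on array 1 and the higher one on array 2. Its ratios were -0.34 and 0.25, with a mean of -0.05 ± 0.27. Probe 2 of RAB27A had the same pattern, at 150 and 166 in pubertal cultures, against 226 and 131 in infant cultures, or ratios of -0.59 and 0.34. Both probes were thus brighter in the Cy3 channel on each array, whichever RNA it carried. With array medians set to 0 in place of loess, the signs of probe 1 turned on both arrays (0.43 and -0.28).

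RAB27B, the close relative of RAB27A known from platelets and secretory epithelia, has 1 probe at chr18:50707630-50707689 and was not well above background in any of the 4 channels. Its raw spot intensities were 59.0 and 59.5 for pubertal RNA, against 53.5 and 59.0 for infant RNA, and no ratio is given. RAB38, a GTPase that carries pigment enzymes to the melanosome, has 1 probe at chr11:87522598-87522657 and was well above background in 1 channel, that of the pubertal RNA on array 1, with a raw intensity of 94.6 there. Its raw intensity was 57.1 for pubertal RNA on array 2, against 64.7 and 64.8 for infant RNA. With a measured level in 1 pubertal culture of 2, no difference between the ages is given for RAB38.

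The motor genes showed no shared direction. MYO5A encodes myosin Va, the actin motor that melanophilin recruits. Its probes lie at chr15:50392801-50392860 (probe 1) and chr15:50430755-50430814 (probe 2). Probe 1 was at 844 and 589 in pubertal cultures, against 587 and 832 in infant cultures. Probe 2 was at 311 and 396 in pubertal cultures, against 384 and 288 in infant cultures. Probe 1 was therefore higher in pubertal cultures on array 1 and lower on array 2 (0.52 and -0.50), and probe 2 did the reverse (-0.30 and 0.46). By dye, probe 1 was brighter in Cy5 and probe 2 in Cy3 on both arrays. The means were 0.01 ± 0.33 and 0.08 ± 0.29, and the 2 probes of the gene disagreed on each single array. MYO7A, the gene of myosin VIIa, was dim. Its kept probe, at chr11:76603525-76603584, was at 72.1 and 85.7 in pubertal cultures, against 105 and 76.1 in infant cultures, and the pubertal spot was well above background on 1 of 2 arrays. The ratios were -0.54 and 0.17. The probe left out, at chr11:76571204-76571263, was well above background for 1 of the 4 channels. With the scanner's own processed signals the kept probe gave -1.72 and -0.23, which is larger on array 1 and turned in sign on array 2.

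MYRIP, the effector that links RAB27A to myosin VIIa in the retinal pigment epithelium, leaned to the infant side on both arrays. Its level was 285 and 211 in pubertal cultures, against 322 and 289 in infant cultures. Both pubertal levels lay below both infant levels, though the pubertal level of array 1 came close to the infant level of array 2. The ratios of -0.17 and -0.45 gave a mean of -0.31 ± 0.25, and with array medians set to 0 the ratio on array 1 turned to 0.35. The gene has 1 probe, at chr3:40276729-40276788.

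Of the synaptotagmin-like genes, SYTL2 leaned to the pubertal side. SYTL2 encodes an effector that tethers RAB27 vesicles at the plasma membrane. Probe 1, at chr11:85083725-85083784 on the minus strand, was at 462 and 1063 in pubertal cultures, against 398 and 456 in infant cultures. Both pubertal levels lay above both infant levels, by little on array 1. The ratios were 0.21 and 1.22, with a mean of 0.72 ± 0.32, and array 2 gave most of it. The dimmer probe 2, at chr11:85122917-85122976 and so upstream in the gene, was at 81.2 and 96.5 in pubertal cultures, against 87.1 and 73.3 in infant cultures. Its ratios of -0.10 and 0.40 differ in sign, and its infant spot was well above background on 1 of 2 arrays. In the authors' deposited table SYTL2 stood at 0.22 and 1.34 by probe 1, and probe 2 had 1.66 for array 2 and an empty cell for array 1.

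SYTL4, the gene of granuphilin, which docks insulin granules in pancreatic beta cells, has 1 probe at chrX:99735943-99736002 and was lower in pubertal cultures on array 1 and nearly level on array 2. It was at 554 and 575 in pubertal cultures, against 1025 and 590 in infant cultures. The pubertal levels lay below the infant levels, but 3 of the 4 levels stood close together and the infant culture of array 1 stood apart. The ratios were -0.89 and -0.04, with a mean of -0.46 ± 0.30.

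SYTL1, an effector known from granule release in neutrophils, was brighter in Cy5 than in Cy3 on both arrays by both probes. Probe 1, which crosses an intron at chr1:27362165-27363951, was at 172 and 130 in pubertal cultures, against 106 and 211 in infant cultures. Probe 2, at chr1:27364346-27364405, was at 139 and 115 in pubertal cultures, against 98.3 and 162 in infant cultures. The pubertal level was thus higher on array 1 and lower on array 2. Turned to pubertal over infant, probe 1 had 0.70 and -0.70, and probe 2 had 0.50 and -0.48. The ratios of probe 1 cancelled in the mean, whose SE was 0.39. In the authors' deposited table the SYTL1 probes had 1.33 and -1.06 (probe 1) and 1.21 and -1.09 (probe 2). A change of at least 2-fold in that table on 1 array was thus matched by one of the opposite sign on the other. Over all genes 31.5% were brighter in Cy5 on both arrays and 23.2% in Cy3, and by at least 2-fold 0.25% in Cy5 and 0.546% in Cy3, where the members had 0 on either side. Among the 8 members 2 were brighter in Cy5 on both arrays (MYO5A and SYTL1) and 2 in Cy3 (RAB27A and MYO7A).

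**Figure D2:**
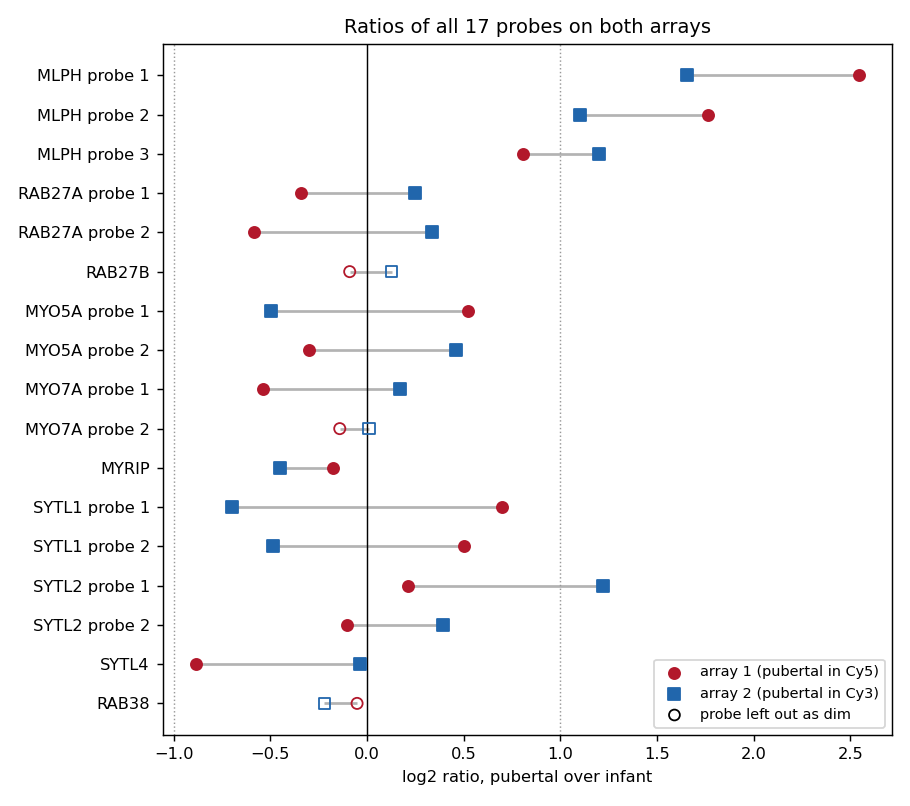
Log2 ratio of pubertal over infant for all 17 probes, with a red circle for array 1 and a blue square for array 2, open where the probe was left out as dim. Dotted lines mark a 2-fold difference. MLPH probes 1 and 2 lie beyond the line on both arrays and probe 3 on array 2, whereas the paired points of RAB27A, MYO5A and SYTL1 fall on either side of 0.

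**Figure D3:**
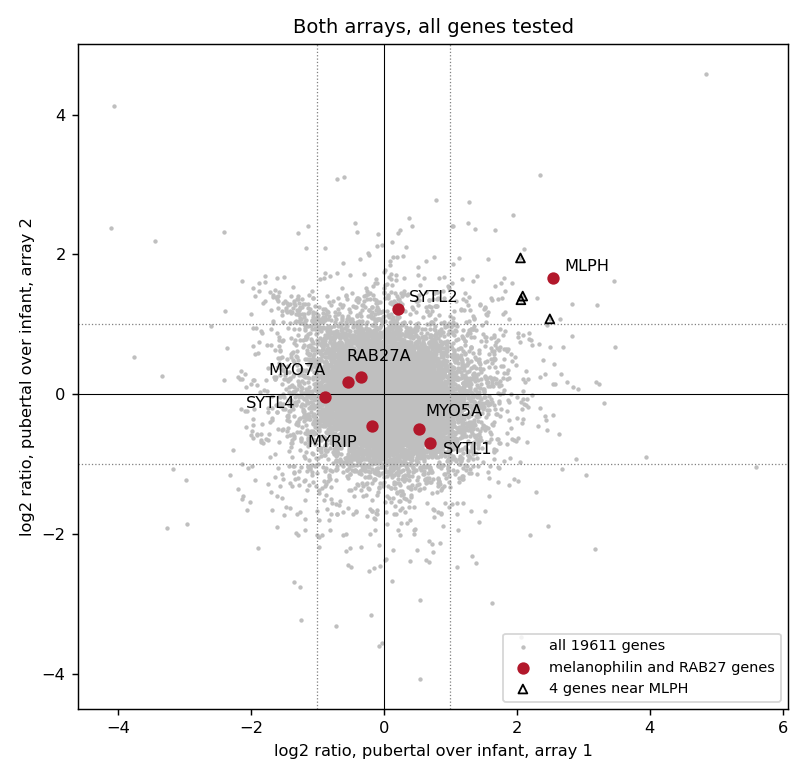
Log2 ratio of pubertal over infant on array 1 (x axis) against array 2 (y axis) for the 19611 genes tested (grey), the 8 kept members (red) and the 4 genes named as near to MLPH (triangles). MLPH, at 2.55 and 1.66, stands outside the cloud of genes at the upper right, and the other 7 members lie within it.

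The authors' deposited table held 8 of the 17 probes: the 3 of MLPH, both of SYTL1, both of SYTL2 and the kept one of MYO7A. MLPH probe 2 stood there at 1.96 and 1.25 and probe 3 at 1.09 and 1.66. MLPH probe 1 had 1.66 for array 2 and an empty cell for array 1, the array with the saturated spot. Of the 342 empty cells of the array 1 column, 293 belonged to probes with a saturated spot or a channel not well above background on that array. Of these 293, 282 had such a dim channel and 11 a saturated spot, where 13 listed probes had a saturated spot. MYO7A stood at -1.76 for array 1 with an empty cell for array 2.

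Other genes of the same transport route were read from 6 lists, written with earlier results of these data known and without the 10 members. Of 203 list genes on the array, 169 were measured. Of these, 41 (24.3%) were on the higher side in pubertal cultures by both arrays, 38 (22.5%) were on the lower side by both, and 90 had opposite signs. Over all genes the shares were 23.5% higher and 21.9% lower, so the lists together lie near the background. The counts of single lists below stand beside these same shares and are no result about the lists. RAB30 was the 1 gene past 2-fold on the higher side by both arrays and SYT11 the 1 past it on the lower side, which is 0.592% each, beside 0.342% and 0.352% over all genes. The medians over the 169 genes were 0.02 and 0.004 on arrays 1 and 2. RAB30, a small GTPase of the Golgi, was at 4519 and 3810 in pubertal cultures, against 2024 and 1651 in infant cultures, with ratios of 1.16 and 1.21. SYT11, a synaptotagmin, was at 827 and 964 in pubertal cultures, against 1823 and 1959 in infant cultures, with ratios of -1.14 and -1.02, and its further probe was at -0.75 and -0.45.

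Of 18 measured effectors and regulators of RAB27 outside the members, 6 were higher by both arrays and 4 were lower by both. This stands beside 23.5% and 21.9% over all genes. The medians were -0.10 and 0.04. SYTL3, another synaptotagmin-like effector, was at 4702 and 3223 in pubertal cultures, against 2921 and 1607 in infant cultures. Its ratios were 0.69 and 1.00, and its further probe gave -0.18 and 0.86. EXPH5, a RAB27 effector related to melanophilin, was at 351 and 258 in pubertal cultures, against 195 and 153 in infant cultures, or ratios of 0.85 and 0.76. In both genes the pubertal levels lay above the infant levels without overlap. RPH3AL, an effector of RAB3 and RAB27 in endocrine cells, had 0.18 and 0.42, and TBC1D10A, which switches RAB27A off, had -0.31 and -0.29.

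Genes that build lysosome-related organelles were mixed, with 3 of 20 higher by both arrays, 6 lower by both and medians of -0.18 and -0.03. BLOC1S1, a subunit of an endosomal sorting complex, was at 0.87 and 0.72, and LYST, a regulator of lysosome size, at 0.66 and 0.42. HPS1, a subunit of the exchange factor for RAB32 and RAB38, was at -0.49 and -0.95, with a further probe at -0.25 and -0.36. RAB32, the relative of RAB38 with a shared role in pigment enzyme transport, was at 2006 and 2844 in pubertal cultures, against 3345 and 5128 in infant cultures. Its ratios were -0.74 and -0.85, and the further probe had -0.72 and -0.60. RAB32 thus read lower on each array by both probes, and its pubertal levels did not overlap the infant ones.

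Among 20 unconventional myosins and their partners 4 were higher by both arrays and 7 were lower by both, with medians of -0.06 and -0.05. MYO1D was at 0.77 and 0.17, MYOHD1, a mitochondrial myosin now named MYO19, at 0.14 and 0.19, MYO1C at -0.91 and -0.21 and CDH23, a cadherin of hair cells, at -0.81 and -0.21. MYO1C had 2 saturated channels, and further probes gave means of 0.11 for MYO1C and -0.02 for CDH23. Of 48 other RAB GTPases 11 were higher and 8 lower, with medians of 0.05 and 0.003. Of 55 SNAREs, SM proteins, synaptotagmins and exocyst subunits 15 were higher and 11 lower, with medians of 0.05 and 0.04. SNAREs, with their SM partners, fuse vesicles with the target membrane, and the exocyst tethers vesicles there.

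Of 14 pigment genes on the array 8 were kept, with 2 higher by both arrays, 2 lower by both and medians of 0.11 and -0.15. TYR and TYRP1, the pigment enzymes, MLANA, OCA2, SOX10 and TRPM1 were left out as dim. DCT, a further pigment enzyme, was at 246 and 219 in pubertal cultures, against 250 and 258 in infant cultures, with ratios of -0.02 and -0.24. SILV, the melanosome matrix gene now named PMEL, had -0.10 and -0.17, and MC1R, the melanocortin receptor, 0.02 and 0.12. MITF, the transcription factor of pigment cells, was at 0.10 and 1.15, with means of 0.51, 0.27 and 0.04 for its further probes.

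**Figure D4:**
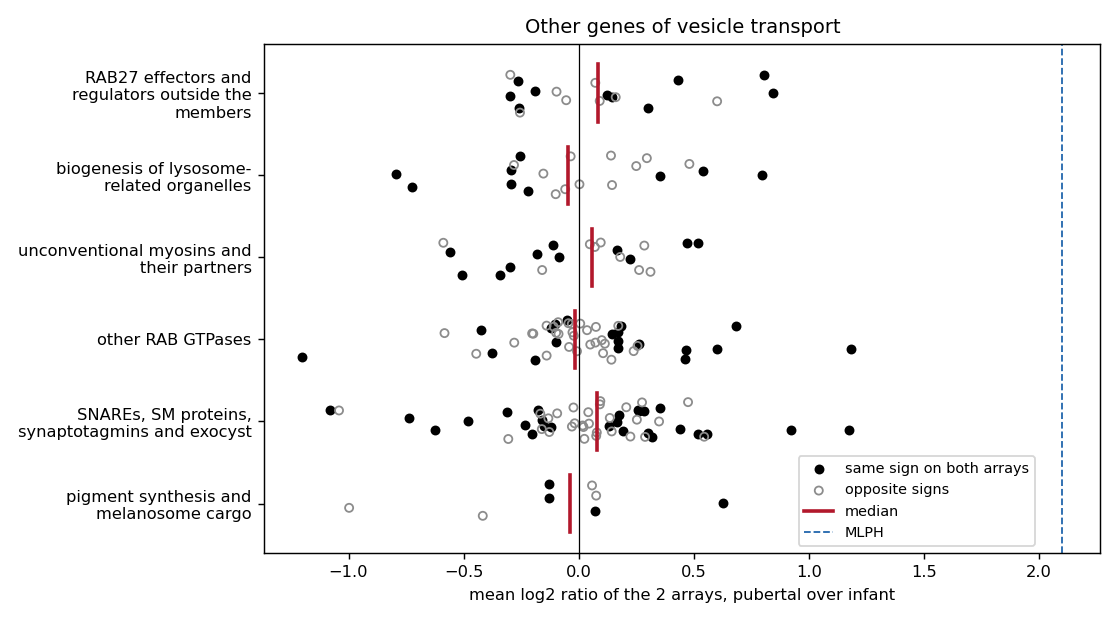
Mean log2 ratio of the 2 arrays, pubertal over infant, for the 169 measured genes of 6 transport lists, filled where both arrays had the same sign and open where they did not, with the median of these means in red, which can differ in sign from the medians of single arrays. The dashed line marks MLPH at 2.10, and every list gene lies to its left. MLPH was picked for its high ratio, so nothing is read from this.

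Cultures of testis can hold other cells, and in bulk RNA fewer cells of a type and less RNA per cell cannot be told apart. The marker lists were written with earlier results of these data known. Over all genes 23.5% were higher by both arrays and 21.9% were lower by both. Of 18 Sertoli markers 17 were kept, 16 of them well above background in all 4 channels. Of the 17 kept markers, 7 were higher by both arrays, 2 were lower by both and 8 had opposite signs. Their summed level was 121680 and 102712 in pubertal cultures, against 87467 and 83317 in infant cultures. This sum includes the cystatin gene CST9L (ratios of 4.85 and 4.58) and the nuclear receptor gene NR0B1 (-2.01 and -1.55). Its brightest genes were INHBB, an inhibin subunit (-0.08 and 0.94), and TF, transferrin (0.46 and -0.21), each with 1 saturated channel. A further TF probe gave 0.33 and 0.19. INHA, another inhibin subunit (1.00 and -0.25), also had 1 saturated channel. Of 11 germ cell markers kept, 8 were well above background in all 4 channels, and of these 7 were higher by both arrays and 0 were lower by both. The other 3 (SYCP3, KIT and MAGEA4) were above background for infant RNA on 1 of 2 arrays, so they were kept through the pubertal channels. All 11 together had sums of 3201 and 2658 in pubertal cultures, against 1572 and 1492 in infant cultures. STK31 was at 2.06 and 1.35 and PRAME at 1.34 and 1.61. Of 11 fibroblast and stroma markers, all above background in the 4 channels, 10 were lower on both arrays, at sums of 32153 and 46959 in pubertal cultures, against 79911 and 73255 in infant cultures. DCN was at -1.97 and -0.43, COL1A2 at -0.69 and -0.74, FBLN1 at -1.28 and -1.30 and NR2F2 at -1.60 and -1.06. The probes of FBLN1 disagreed, with means of -0.10 and -0.49 for the further ones. The part of these cell types in the MLPH result was not tested.

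Other marker lists follow. Duct epithelium markers, of interest because melanophilin is also expressed in glandular and duct epithelia, were kept for 10 of 13 genes, and all 10 had opposite signs on the 2 arrays. Over all genes tested 45.4% shared a sign. Their sums were 66742 and 160536 in pubertal cultures, against 148803 and 74925 in infant cultures, which overlap. KRT18 was at -1.46 and 1.30 and KRT8 at -0.95 and 0.91, both with saturated channels, and KRT7, FOXA1 and MUC1 were left out as dim. Macrophage and leukocyte markers, which belong to cells that use RAB27A, had sums of 2258 and 1319 in pubertal cultures, against 1080 and 1132 in infant cultures. Of the 8 genes kept, 4 were higher by both arrays, 1 was lower by both and 3 had opposite signs. Among the 6 well above background in all 4 channels, these counts were 2, 1 and 3. MNDA of that list was at 1.81 and 1.66, CD163 at 2.45 and -0.36 and ITGB2 at 0.31 and 0.36. MNDA and ITGB2 were well above background for infant RNA on 1 of 2 arrays, so they were kept through the pubertal channels. Of 7 melanocyte markers 4 (TYR, TYRP1, MLANA and SOX10) were left out as dim, and the other 3 summed to 5492 and 4032 in pubertal cultures, against 5790 and 3965 in infant cultures. Leydig cell sums were 130627 and 158324 in pubertal cultures, against 124642 and 82660 in infant cultures. In that list CYP17A1 was at -2.12 and -1.45, CYP11A1 at 0.67 and 0.27, HSD3B2 at -0.44 and 2.46 and HSD3B1 at -0.003 and 1.76. STAR, also bright, was at 1.14 and -1.20. CYP11A1, HSD3B2, HSD3B1 and STAR had 1 saturated channel each, which limits their ratios and these sums. A further HSD3B1 probe gave 0.68 and 0.92. Of the 6 Leydig genes kept, 1 was higher by both arrays, 1 was lower by both and 4 had opposite signs. Peritubular myoid sums were 14264 and 36276 in pubertal cultures, against 9904 and 49715 in infant cultures. In that list DES was at -1.07 and -1.26, ACTG2 at 0.70 and 0.75, CNN1 at 0.84 and -1.24 and TAGLN at 0.25 and -0.10. A further TAGLN probe gave 0.13 and 0.33. Of 5 endothelial markers 2 were kept, VWF at 0.59 and 1.10 and PECAM1 at 0.21 and -0.06, at sums of 293 and 330 in pubertal cultures, against 218 and 211 in infant cultures.

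**Figure D5:**
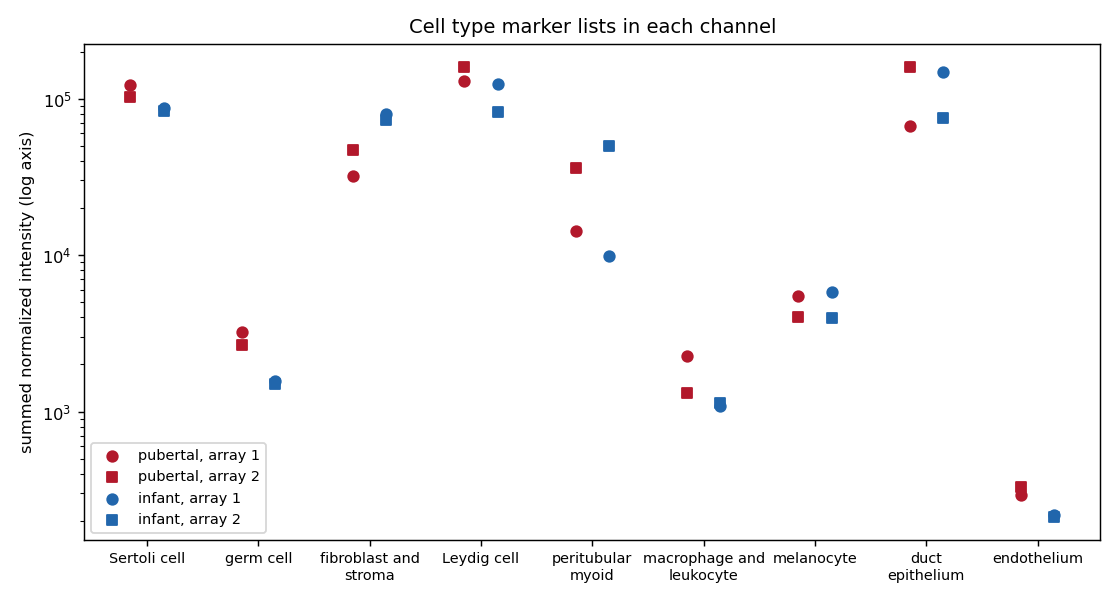
Summed normalized intensity (log axis) of the kept markers of 9 cell type lists, with pubertal channels in red left of infant channels in blue, circles for array 1 and squares for array 2. Both pubertal sums lie above both infant sums for the Sertoli, germ cell, Leydig, macrophage and endothelium lists and below both for the fibroblast and stroma list, while the duct epithelium, peritubular and melanocyte points overlap. The Sertoli, Leydig and duct epithelium sums include saturated channels. The germ cell and macrophage sums include genes kept only through the pubertal channels, a filter that leans to higher pubertal sums.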

How the data were processed

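Two-colour arrays of Agilent's human design were processed by Agilent Feature Extraction 9.5.1.1, which the submitters' processing notes name. Both arrays came from 1 slide and 1 scan, so no batch could be tested. The deposited scanner files hold mean spot intensities and local background intensities, processed intensities and their log10 ratio (red over green), per the file headers, besides flags for each spot. In the authors' deposited table, 4848 probes have a log2 ratio or an empty cell for each array. Set against the scanner ratios in the pubertal over infant direction, its columns had slopes of 1.006 and 1.003 and median differences of -0.016 and -0.0004. The column medians were -0.37 and 0.12. Direction and scale are thus known, and the values follow the scanner ratios closely, so they are no independent alternative to them. The normalization behind the deposited values is not given in the sources used here.

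Mean intensities were corrected by normexp (offset 50, which shrinks the ratios of dim probes) and normalized by loess in limma 3.58.1 under R 4.3.3. Outlier spots were left out and saturated spots kept. Spots of 1 probe were averaged, and each ratio was signed as pubertal over infant from the labelled dyes. Channel levels were also quantile-normalized on mean intensity between arrays. Of 41000 probes 15232 were left out as dim or without a ratio. lmFit and eBayes were run over all genes on 2 arrays (1 residual degree of freedom), after a check on simulated data. A dye term would have left no residual degree of freedom. The simulated effects were larger than the mean ratio of MLPH, so the check does not show whether effects of that size would be called.

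Members and lists were chosen with earlier results of these data known. Named genes were all members, list genes at least 2-fold apart on both arrays (else the 4 with the largest shared ratio), for markers the 2 brightest and the 2 with the largest shared ratio, and the 5 genes nearest to MLPH, of which 1 is not reported here. Alternatives were the scanner's log ratio, offset 0, median centring, no filter or a stricter one, the mean of all probes, an intensity trend, no saturated spots, each array alone and the authors' table.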

Additional observations from a re-analysis of the deposited data

How the results depend on the processing

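The mean log2 ratio of MLPH stayed positive under every alternative run. It was 2.10, and 2.13 with the scanner's log ratio, 2.11 at offset 0, 2.32 with median centring, 1.51 as the mean of its probes and 1.61 in the authors' table (probe 2). Without saturated spots probe 2 stood for the gene at 1.43. Single arrays gave 1.66 to 2.55. With median centring the all-gene medians were 0.63 (array 1) and -0.42 (array 2), and MLPH stood at 3.77 and 0.87, so that 0 members were at least 2-fold higher on both arrays, 1 was lower on both, and the transport lists had 0 genes at least 2-fold higher and 0 lower. Over all genes 67 passed 2-fold on the higher side and 69 on the lower side. These counts were 275 and 219 with the scanner's log ratio and 164 and 130 at offset 0, and 23 were lower with median centring. Of the transport lists 2 genes were higher and 2 lower with the scanner's log ratio, 2 higher at offset 0, 0 lower with the mean of probes and 0 higher in the authors' table. That table had 0 members lower on both arrays, but it holds no probe of MYRIP or SYTL4, so this count was fixed by the probes it lists. limma called 1 gene in place of 0 at offset 0, with median centring and with an intensity trend. On single arrays, which give no test, 461 to 835 genes passed 2-fold on the higher side and 465 to 582 on the lower side, 1 to 2 members were at least 2-fold higher, 4 were higher and 4 lower, and 4 to 8 transport genes were at least 2-fold higher and 3 to 7 lower. The rise in counts there follows from asking 1 array in place of 2. Apart from the members missing from the authors' table, the cause of the other shifts was not tested. No paired analysis was possible because the 2 arrays form 1 group and each ratio already sets 1 pubertal culture against 1 infant culture. Dim members (RAB27B, RAB38 and MYO7A) are limited by signal over background, and saturation limits MLPH probe 1.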

Other observations

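Opposite signs on the 2 arrays were common in the lists, and 4 such genes are named here after their values were seen. CDH1, the epithelial cadherin, was at 3.04 on array 1 and -1.16 on array 2, EDNRB, the endothelin receptor of pigment cell precursors, at 0.39 and -2.38, and GPNMB, a melanosome and lysosome glycoprotein, at 0.12 and -0.95. LUM was at -2.39 and 1.19, the 1 stroma marker that did not share the lower side on both arrays. With 1 culture of each age per array, animal and dye cannot be told apart in these values.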
